A study of Mus musculus with 240 samples.

Results

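The genes described here are 10 growth factor receptor tyrosine kinases of the mouse, followed from the first days after gene deletion in oligodendrocyte precursor cells (OPCs) to brain tumours. They are the ErbB receptors Egfr, Erbb2, Erbb3 and Erbb4, the fibroblast growth factor receptors Fgfr1, Fgfr2 and Fgfr3, the hepatocyte growth factor receptor Met, the stem cell factor receptor Kit and the insulin-like growth factor receptor Igf1r. They were chosen by gene symbol: each of the 10 names matched 1 of the 34623 genes in the deposited expression table. The related PDGF receptors are not among them.

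As background, a receptor tyrosine kinase binds a ligand outside the cell, pairs with another receptor and phosphorylates itself and its partners inside the cell. Adaptor proteins then recruit the activators of RAS, and RAS drives the MAP kinase cascade; neurofibromin, the product of Nf1, switches RAS off and so acts downstream of all these receptors. Erbb3 has little kinase activity of its own and signals through a partner such as Erbb2, which in turn has no known ligand. In brain, FGF receptors act on OPC growth and on astrocytes, Erbb4 is known above all from neurons as a neuregulin receptor, and EGFR and MET are receptors often altered in human glioma.

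RNA was measured in tdT-positive cells that were taken from frozen brain sections by laser capture microdissection. Bulk samples came from 37 mice in 6 groups, and time is given as dpi, days counted from the start of tamoxifen. Wild-type mice (WT) were sampled at 12 dpi (5 mice), 90 dpi (5) and 150 dpi (6), mice with the genotype Trp53-/- Nf1-/- (CKO) at 12 dpi (7) and 90 dpi (7), and brain tumours of that genotype at 150 dpi (7 mice). The other 192 libraries are small CKO samples at 12 and 90 dpi, either of 10 cells each or pool-and-split controls, with 4 sets of libraries for each kind and time. Bulk libraries were made from total RNA of 10 µm sections by T7 linear amplification, and small libraries from polyA RNA of 8 µm sections by PCR amplification. The Cre driver, the strain and the age of the mice are not given in the sources used here, and the labels do not say what the numbers that name the small sets stand for.

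The 48 bulk libraries held 93694 to 23199230 counts (median 9999625), the 10-cell libraries 1639385 to 6489275 and the pool-and-split libraries 1906783 to 5160788. The median of Nf1 was 310 counts per 1000000 (CPM) in WT and 181 in CKO at 12 dpi, 294 and 177 at 90 dpi, and 290 in WT and 217 in tumours at 150 dpi, with overlap between groups at 90 and 150 dpi. The overlap at 90 dpi involved 1 mouse labelled CKO, CKO_20647, with 301.6 CPM; without it CKO reached 205 and WT began at 274. Trp53 overlapped between genotypes at every time; which exons were removed is not given in the sources used here. No defining marker of OPCs, neurons, oligodendrocytes, astrocytes, microglia, endothelial cells or pericytes was at 0 in any bulk group. In bulk samples, fewer cells of a type and less RNA per cell cannot be told apart.

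On GRCm38 the receptor genes lie at chr11:16752203-16918158 (Egfr, + strand), chr11:98412470-98437716 (Erbb2, +), chr10:128567523-128589652 (Erbb3, −), chr1:68032186-69108059 (Erbb4, −), chr6:17463800-17573980 (Met, +), chr8:25513654-25575718 (Fgfr1, +), chr7:130162451-133123350 (Fgfr2, −), chr5:33721674-33737068 (Fgfr3, +), chr5:75574916-75656722 (Kit, +) and chr7:67952827-68233668 (Igf1r, +). All are protein-coding. Erbb2 shares exon bases with Mien1 on the opposite strand and Fgfr2 shares exon bases with Ctbp2 on the same strand, and whether the counting used strand is not given in the sources used here.

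The promoters of Fgfr2 and Met are shown because Fgfr2 was the receptor that fell in tumours and Met the one that varied most among them. The RefSeq promoter table (GRCm38.p6) held 8 of the 10 receptors, without Erbb3 and Fgfr1. Each window runs from 250 bases before to 50 bases after the start that the table gives, 5′ to 3′ on the gene's own strand, with CG dinucleotides in capitals. These starts are not the outer ends of the gene intervals above: the Fgfr2 window lies inside its interval, and a gene can have other starts. The windows are chr7:130266759-130267058 (− strand) and chr6:17463707-17464006 (+ strand).
Fgfr2: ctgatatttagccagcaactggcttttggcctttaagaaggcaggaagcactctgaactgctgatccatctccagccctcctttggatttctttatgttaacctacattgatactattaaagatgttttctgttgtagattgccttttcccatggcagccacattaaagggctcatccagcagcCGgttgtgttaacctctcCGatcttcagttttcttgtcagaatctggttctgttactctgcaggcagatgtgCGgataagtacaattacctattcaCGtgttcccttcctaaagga
Met: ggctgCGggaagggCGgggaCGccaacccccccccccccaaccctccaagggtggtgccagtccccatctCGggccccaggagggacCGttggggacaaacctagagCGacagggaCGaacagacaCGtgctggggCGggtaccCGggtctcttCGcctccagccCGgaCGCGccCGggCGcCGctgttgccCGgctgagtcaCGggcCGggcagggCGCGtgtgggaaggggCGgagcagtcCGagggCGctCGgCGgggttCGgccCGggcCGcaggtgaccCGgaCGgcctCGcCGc
The 2 windows differ in base composition. The Fgfr2 window has 4 CG dinucleotides and 43.7% G or C, and 31.4% of all 32851 promoter windows have fewer. The Met window has 34 and 75.7%, and 92.3% of windows have fewer; the median window has 7 and 52.7%. Of 5 motifs searched on both strands, the Met window holds GGGCGG (GC box) 3 times and TGANTCA (AP-1) once, motifs that occur in 35.7% and 7.81% of all windows. The TATA box, TATAAA, is in 13.6% of all windows, the ETS motif CCGGAAG in 8.86% and the SOX motif ACAAAG in 18.7%, and the Met window has none of them. The Fgfr2 window has none of the 5 motifs.

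In wild-type cells the receptors spanned a wide range of levels. Per kilobase of transcript at 150 dpi (mean ± SD of CPM per kb, n = 6), Fgfr2 was highest at 30.1 ± 4.75, followed by Erbb4 at 25.5 ± 10.4 and Igf1r at 19.6 ± 3.09. The ranges of 1 SD around the means of these neighbours overlapped. Fgfr1 came next at 9.45 ± 1.73, apart from Igf1r by more than both SDs. Fgfr3 (5.62 ± 2.03), Erbb3 (5.31 ± 2.12) and Kit (4.07 ± 1.70) overlapped in the same way. The range of Egfr (1.88 ± 0.665) overlapped that of Kit only at its edge. Erbb2 (0.599 ± 0.363) and Met (0.440 ± 0.190) were lowest and close to each other. Fgfr2, Erbb4 and Igf1r were also the first 3 at 12 dpi in WT, with 29.1 ± 4.01, 23.5 ± 4.14 and 17.0 ± 1.14 CPM per kb (n = 5). The order depends on the length used, that of the longest coding transcript. For Fgfr2 this has 4311 bases, and its median coding transcript 2296. Without division by length, Fgfr2 at 150 dpi (at most 161 CPM) was below Erbb4 (at least 197) and Igf1r (at least 174).

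The order per kilobase was different in tumours (n = 7). Erbb4 stood at 30.8 ± 15.4, Erbb3 at 28.2 ± 17.8, Igf1r at 21.9 ± 10.9, Kit at 17.5 ± 11.4, Fgfr3 at 15.9 ± 11.1, Fgfr1 at 13.9 ± 3.11, Fgfr2 at 10.7 ± 5.26, Egfr at 10.2 ± 10.5 and Erbb2 at 1.01 ± 0.618. The mean of Met, 57.7 ± 136, was the highest and came mostly from 1 tumour. The ranges of 1 SD around the means overlapped for all neighbours in this order.

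**Figure D1:**
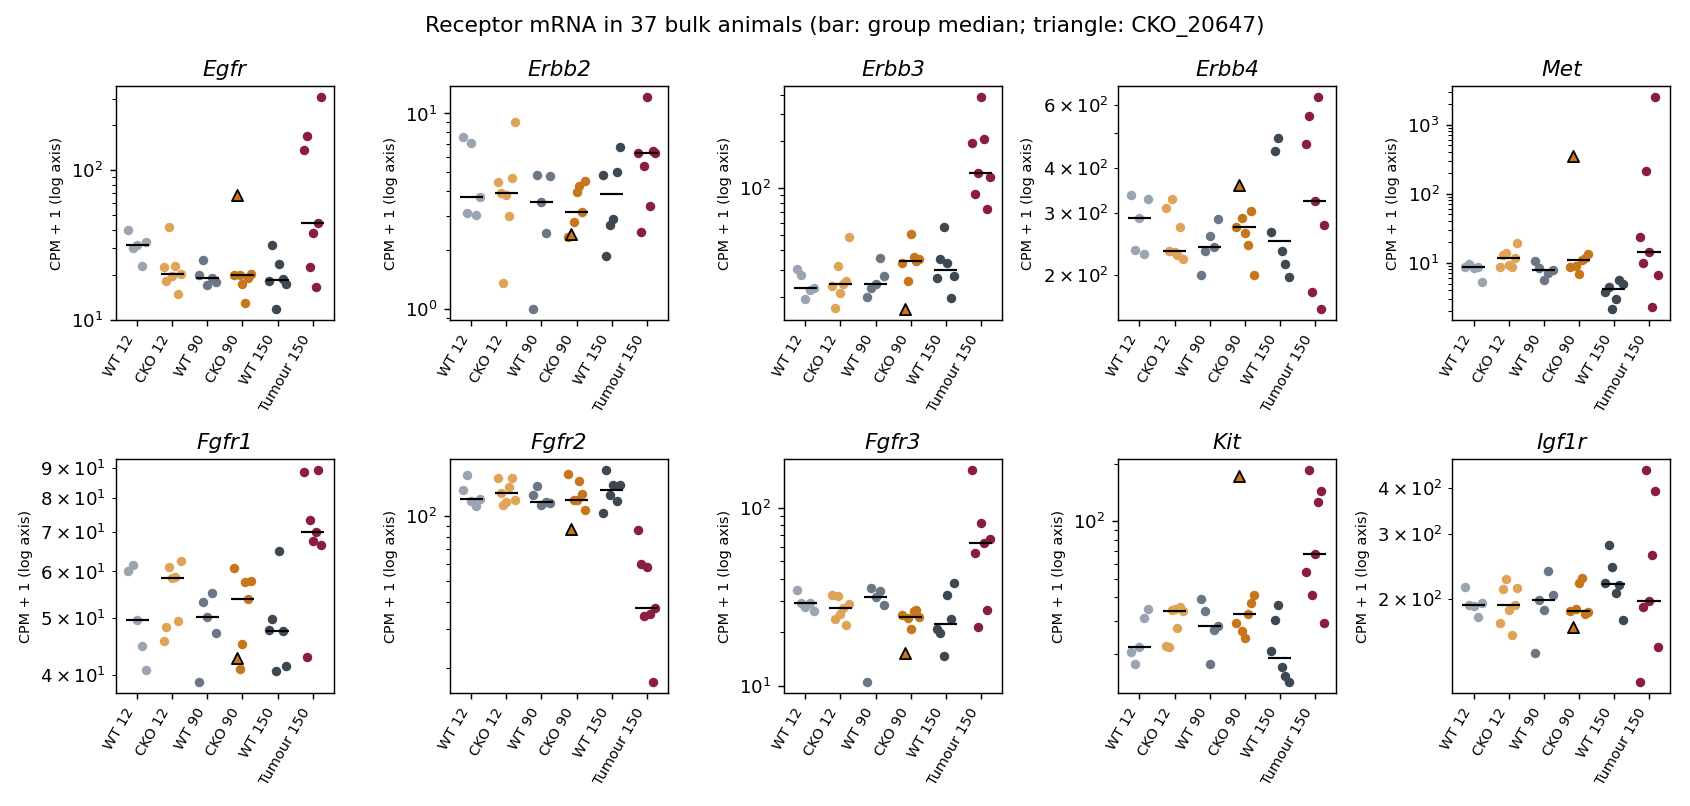
CPM + 1 (log axis) of the 10 receptors in the 37 bulk animals, 1 point per animal, by group and dpi; bars are group medians and the triangle is the animal CKO_20647. Tumours lie above every other animal of the WT 150 and CKO 90 groups for Erbb3 and below them for Fgfr2, while most groups before tumours overlap.

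Of the 11 animals that were sequenced as 2 libraries, 1 had libraries that differed widely across the receptors. Between the 2 libraries of the other 10 animals, the receptors' median absolute difference was 0.21 (log2 of CPM + 1), against 2.13 in CKO_20647, a mouse labelled CKO at 90 dpi. The largest difference of a single receptor was 2.58 in the other 10 animals, for the low Erbb2 in Tumor_16840 (7.77 and 0.469 CPM), and 9.21 in CKO_20647. Its library with 17957 genes detected had Met at 593, Kit at 31.7, Egfr at 18.6, Erbb3 at 26.6 and Erbb4 at 258 CPM. Its library with 13265 genes detected had Kit at 266, Egfr at 97.6 and Erbb4 at 356 CPM, and Met, Erbb2 and Erbb3 at 0. At the depth of that library a count of 0 allows up to 0.317 CPM (3 counts, counting error only), so Met was at least 1870-fold lower there than in the other library.

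Nf1, one of the deleted genes, was at 180.1 CPM in the library with more genes and at 337 in the other. The second value lay within the WT range of 274 to 343 at 90 dpi. That range uses TMM-scaled library sizes, while the 2 libraries use their totals. Whether the CKO label of the second library is right was not tested. Markers of other cells moved with the library too. The summed CPM of 11 neuron markers was 8324 in the library with more genes and 18678 in the other, that of 12 oligodendrocyte markers 2986 and 376, with 6 of the 12 at 0 in the second, and that of 12 OPC markers 2714 and 1437. Their part in the receptor values was not tested. Both libraries were summed under the label CKO, and receptor changes that moved with the animal are also given without it.

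**Figure D2:**
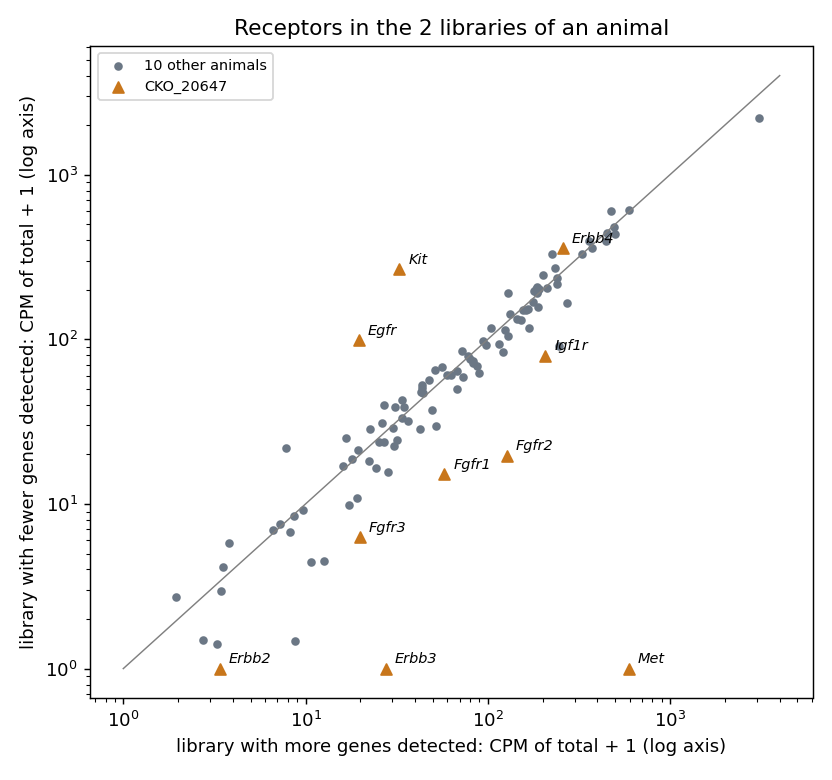
Each receptor's CPM + 1 in the 2 libraries of an animal (both axes log), with the library that detected more genes on the x axis; grey points are 10 animals, orange triangles CKO_20647, and the line marks equal values. The grey points follow the line, while Met, Erbb3, Kit, Egfr and Fgfr2 of CKO_20647 lie far from it.

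The first question was whether deletion of Trp53 and Nf1 had changed the receptors before tumours formed. No receptor was called by edgeR's quasi-likelihood test (Benjamini-Hochberg adjusted p under 0.05 over 16349 genes) at either premalignant time. At 12 dpi the log2 changes of CKO against WT ran from -0.38 (Egfr) to 0.50 (Met), 0 of 10 had an unadjusted p under 0.05, and DESeq2 called 0. Of all genes 0.0183% were called. At 90 dpi the changes ran from -0.44 (Fgfr3) to 3.35 (Met), 0 of 10 were called against 0.0489% of all genes, 2 had an unadjusted p under 0.05 and DESeq2 called 0. The groups of every receptor overlapped at both times, against 1.33% and 0.758% of all genes whose groups did not.

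Several receptors were measured closely enough to bound a change at 90 dpi. For Fgfr1 the 95% interval of the log2 change was -0.30 to 0.35, for Igf1r -0.45 to 0.37, for Fgfr2 -0.42 to 0.47 and for Erbb4 -0.33 to 0.63. For Egfr it was -0.66 to 1.29 and for Erbb2 -1.31 to 0.68, so changes of 1 log2 unit in one direction could not be told from none. The estimate for Egfr was 0.31, and -0.11 without CKO_20647.

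The 2 receptors with a low unadjusted p at 90 dpi were Met and Kit, and both rested on CKO_20647. Met ranged from 5.90 to 350.5 CPM in CKO (median 10.0) and from 4.54 to 9.48 in WT (median 6.94), with a log2 change of 3.35 ± 1.36 (SE, edgeR adjusted p = 0.896). Kit ranged from 23.3 to 173 CPM in CKO (median 31.7) and from 16.9 to 37.9 in WT (median 27.3), with 0.90 ± 0.44 (edgeR adjusted p = 0.96). The highest WT values are those of WT_21167, the shallowest animal, with 1 count of Met and 4 of Kit. CKO_20647 gave the highest value of both receptors in CKO, and without it the changes were 0.33 and 0.24.

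The same held over time within a genotype. From 12 to 90 dpi, 0 of 10 receptors were called in CKO (0 of all genes, 0%) by edgeR. There 1 receptor, Met, had an unadjusted p under 0.05, with a log2 change of 2.61, and -0.26 without CKO_20647. For Egfr the change was 0.07, and -0.34 without that animal. DESeq2 called 0, and 0.0979% of all genes had groups that did not overlap. In WT 0 of 10 receptors were called from 12 to 90 dpi (0.00612% of all genes, 2.96% without overlap) and 0 of 10 from 90 to 150 dpi (0.0183%, 0.875% without overlap). In these WT comparisons 0 receptors had an unadjusted p under 0.05, DESeq2 called 0, and the groups of every receptor overlapped. The genotype effect at 90 dpi minus that at 12 dpi, the interaction term, was called by edgeR for 0 of 10 receptors (0% of all genes), with 0 at an unadjusted p under 0.05 and 0 by DESeq2.

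Tumours differed from wild-type cells at 150 dpi in 7 of 10 receptors, of which 6 rose (Egfr, Erbb3, Met, Fgfr1, Fgfr3 and Kit) and Fgfr2 fell (edgeR). Of all genes 46.2% were called, 24.3% higher and 21.9% lower, so a call alone sets no receptor apart. Of these calls 52.6% were higher, and 62.1% with size factors by DESeq2's method. The median log2 change of the 10 receptors was 1.12 and that of all tested genes 0.06. With those size factors in place of TMM, the median of all genes was 0.22 in this comparison and 0.29 in place of 0.12 against CKO at 90 dpi, and no receptor changed direction. Against CKO at 90 dpi, 5 receptors rose (Egfr, Erbb2, Erbb3, Fgfr1 and Fgfr3) and Fgfr2 fell, with a receptor median of 1.03. There 49.1% of all genes were called, 26.4% higher and 22.6% lower; 53.8% of the calls were higher, and 63.5% with DESeq2's size factors. Without CKO_20647 the same 6 receptors were called, with changes of 2.51 (Egfr), 1.14 (Erbb2), 2.23 (Erbb3), 0.43 (Fgfr1), -1.48 (Fgfr2) and 1.53 (Fgfr3), and Met and Kit were called as well. Both comparisons use the same 7 tumours, and in the second the times of sampling differ as well. Tumour and genotype cannot be told apart at 150 dpi, since no CKO cells outside tumours were sampled then.

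**Figure D3:**
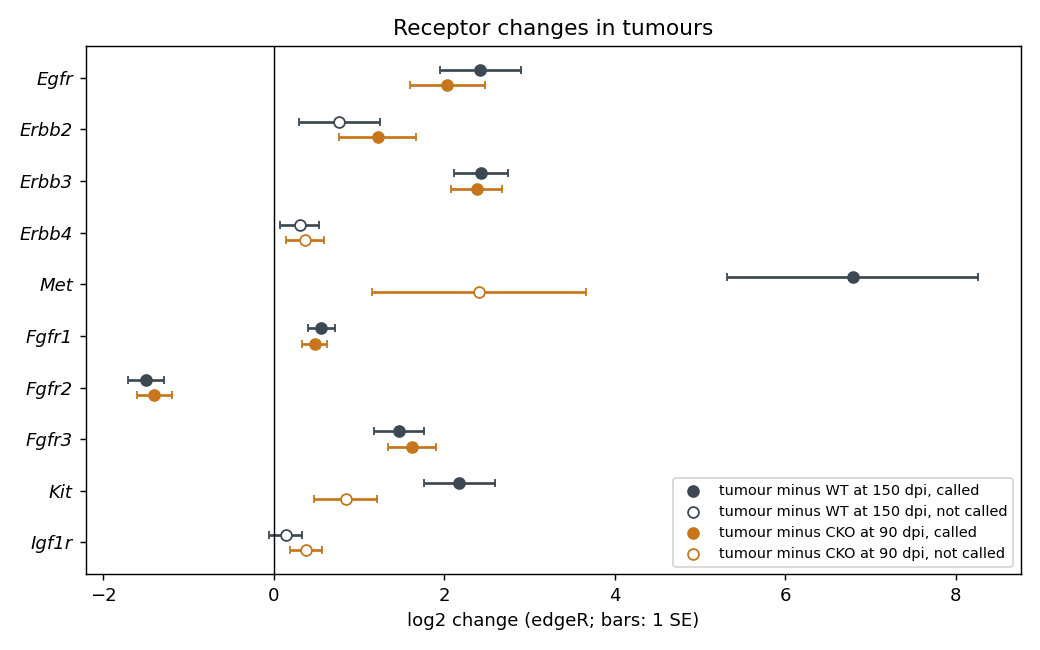
Log2 change of each receptor in tumours against WT at 150 dpi (dark) and against CKO at 90 dpi (orange), with bars of 1 SE; filled points were called by edgeR and open points were not. Fgfr2 alone lies left of 0, and Met has the widest bars.

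The ErbB receptors moved unequally. Erbb3, the neuregulin receptor that depends on a partner kinase, ranged from 72.2 to 384 CPM in tumours (median 125), from 18.7 to 55.5 in WT at 150 dpi (median 29.0) and from 15.7 to 49.6 in CKO at 90 dpi (median 33.1). Every tumour was above every mouse of both other groups, which held for 15.7% and 17.2% of all genes in one direction or the other. The log2 change was 2.43 ± 0.32 against WT (edgeR adjusted p = 6.04e-08) and 2.38 ± 0.30 against CKO (edgeR adjusted p = 2.64e-08).

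Egfr, the receptor of EGF and TGF-alpha, ranged from 15.5 to 306.5 CPM in tumours (median 43.0), from 10.8 to 30.8 in WT (median 17.4) and from 12.0 to 67.5 in CKO at 90 dpi (median 18.9). It was high in Tumor_21354 (306.5), Tumor_16839 (169) and Tumor_16713 (135), while Tumor_21256 (15.5) and Tumor_16840 (21.6) lay within the WT range. The change was 2.42 ± 0.48 against WT (edgeR adjusted p = 6.92e-05) and 2.04 ± 0.44 against CKO (edgeR adjusted p = 2.01e-04).

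Erbb2, the partner receptor without a ligand of its own, was low everywhere. It ranged from 1.48 to 11.1 CPM in tumours (median 5.27), from 0.870 to 5.72 in WT (median 2.86) and from 1.35 to 3.53 in CKO at 90 dpi (median 2.15). The change of 1.22 ± 0.45 against CKO was called (edgeR adjusted p = 0.0247), but not that of 0.77 ± 0.48 against WT (edgeR adjusted p = 0.192, 95% interval -0.17 to 1.70). The call against CKO was lost without Tumor_16844 (0.85, edgeR adjusted p = 0.106), without CKO_20642 (1.13, edgeR adjusted p = 0.053) and with the deepest library of each animal (0.83, edgeR adjusted p = 0.108). Mien1, which shares exon bases with it, fell in both comparisons (-0.53 and -0.75).

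Erbb4 ranged from 159.8 to 631 CPM in tumours (median 322), from 197 to 483 in WT (median 249) and from 199 to 358 in CKO at 90 dpi (median 272). The groups overlapped, with tumours both above and below the whole WT range. The changes of 0.30 (95% interval -0.15 to 0.75) and 0.37 were not called (edgeR adjusted p = 0.299 and 0.173). With size factors by DESeq2's method the change against CKO was 0.55, with a call (edgeR adjusted p = 0.0400).

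Among the FGF receptors, Fgfr2 went the other way from Fgfr1 and Fgfr3. Fgfr2 ranged from 16.2 to 84.9 CPM in tumours (median 36.7), from 102 to 161 in WT (median 131) and from 85.6 to 155 in CKO at 90 dpi (median 118). With the libraries of each animal summed, every tumour was below every mouse of both other groups. Of all genes, 15.7% against WT and 17.2% against CKO had groups that did not overlap. The nearest values were 84.9 in Tumor_16713 and 85.6 in CKO_20647, and the 2 libraries of each differed. Tumor_16713 had 120 and 82.9 CPM of the library totals, and CKO_20647 had 127 and 18.6. Fgfr2 fell by 1.50 on the log2 scale against WT (SE 0.21, edgeR adjusted p = 3.26e-07) and by 1.41 against CKO (SE 0.21, edgeR adjusted p = 5.38e-07). Ctbp2, whose exons overlap those of Fgfr2 on the same strand, rose in both comparisons (0.64 and 0.85).

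Fgfr3, a receptor prominent in astrocytes, ranged from 20.3 to 162 CPM in tumours (median 62.2), from 13.6 to 36.8 in WT (median 21.3) and from 14.2 to 25.6 in CKO at 90 dpi (median 23.2). Tumor_16840 (20.3) and Tumor_21349 (25.6) were within the WT range and the other 5 tumours above it. The change was 1.47 ± 0.29 against WT (edgeR adjusted p = 9.13e-05) and 1.62 ± 0.28 against CKO (edgeR adjusted p = 9.15e-06). The change of Fgfr1 was small: it ranged from 41.9 to 88.2 CPM in tumours (median 69.0) and from 39.7 to 63.9 in WT (median 46.5), a log2 change of 0.56 ± 0.15 (edgeR adjusted p = 0.0030), and 0.48 ± 0.14 against CKO at 90 dpi (39.9 to 59.8 CPM, median 52.8, edgeR adjusted p = 0.00606). Tumor_16839 (41.9) was within the WT range and the other 6 tumours were above it.

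Met, the receptor of hepatocyte growth factor, had the widest range. The 7 tumours had 22.7 (Tumor_16713), 8.89 (Tumor_16839), 208 (Tumor_16840), 13.4 (Tumor_16844), 1.29 (Tumor_21256), 2492 (Tumor_21349) and 5.59 CPM (Tumor_21354), against 1.13 to 4.68 in WT at 150 dpi (median 3.14) and 5.90 to 350.5 in CKO at 90 dpi (median 10.0). The high value was in both libraries of Tumor_21349, at 2224 and 3083 CPM. Tumor_21256 was within the WT range and the other 6 tumours were above it.

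The fitted change of Met against WT was 6.79 ± 1.47 (edgeR adjusted p = 2.44e-04), and it depended on Tumor_21349 and on which groups shared the fit. Without Tumor_21349 it was 3.81 (edgeR adjusted p = 0.00272), and with only the 2 compared groups in the fit 3.57 (edgeR adjusted p = 0.0539), which is not a call. Against CKO at 90 dpi the change of 2.41 ± 1.26 was not called (edgeR adjusted p = 0.112). It was 4.92 without CKO_20647 (edgeR adjusted p = 1.30e-04) and -0.53 without Tumor_21349 (edgeR adjusted p = 0.674).

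Kit, the receptor of stem cell factor, ranged from 28.2 to 185 CPM in tumours (median 66.4), from 13.3 to 35.1 in WT (median 18.0) and from 23.3 to 173 in CKO at 90 dpi (median 31.7). Tumor_21354 (28.2) was within the WT range and the other 6 tumours above it. The change against WT was 2.17 ± 0.42 (edgeR adjusted p = 4.86e-05). Against CKO it was 0.84 ± 0.37 (edgeR adjusted p = 0.0575), and 1.54 without CKO_20647 (edgeR adjusted p = 1.35e-04).

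Igf1r ranged from 118 to 446 CPM in tumours (median 197), from 174 to 279 in WT (median 219) and from 167 to 227 in CKO at 90 dpi (median 185). Tumours lay above, within and below the WT range. The change against WT was 0.14 (95% interval -0.25 to 0.53, edgeR adjusted p = 0.609), and that against CKO 0.38 (edgeR adjusted p = 0.0921). With size factors by DESeq2's method the latter was 0.53, with a call (edgeR adjusted p = 0.0131).

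The difference between the 150 dpi and the 90 dpi genotype effects was tested as an interaction term, with tumours in the place of CKO at 150 dpi. It was called for 4 of 10 receptors: Egfr (2.11, edgeR adjusted p = 0.0145), Erbb3 (2.12, 2.60e-04) and Fgfr3 (1.91, 5.70e-04) were higher, and Fgfr2 (-1.52, 2.44e-04) was lower. Of all genes 30.0% were called, 14.2% higher and 15.8% lower. Of these calls 47.2% were higher, against 57.3% with size factors by DESeq2's method. DESeq2 called 7 receptors, and 5555 of 16257 genes. For Met the term was 3.44 (edgeR adjusted p = 0.161) and, without CKO_20647, 5.99 with a call.

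Other cells' markers moved with the tumour group. The summed CPM of the neuron markers was 284.6 to 1532 in tumours and 7973 to 11436 in WT at 150 dpi, and 10 of 11 fell. That of the OPC markers was 5126 to 13518 against 2173 to 4410 (10 of 12 rose), and that of 12 microglia markers 372 to 1276 against 159 to 226 (11 rose). The astrocyte markers summed to 1537 to 4285 against 3513 to 4801 (5 rose, 5 fell), the oligodendrocyte markers to 514 to 1812 against 1704 to 3597 (1 rose, 7 fell) and 12 proliferation genes to 550.0 to 3154 against 66.2 to 138 (12 rose). Pericyte markers summed to 125 to 304 against 367 to 668, and endothelial markers to 125.5 to 268 against 244 to 338. Their part in the receptor changes was not tested.

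Each tumour was the highest of the 7 in 1 or 2 receptors, which does not mean that these were raised against WT. Fgfr2 in Tumor_16713, for example, differed by -0.60 log2 units from the WT mean at 150 dpi. Tumor_16713 was highest in Fgfr2 and Fgfr3, Tumor_16839 in Kit, Tumor_16840 in Igf1r, Tumor_16844 in Erbb2 and Erbb3, Tumor_21256 in Erbb4, Tumor_21349 in Met and Fgfr1, and Tumor_21354 in Egfr. Counted as more than 1 log2 unit above the WT mean at 150 dpi, a tumour had 4 to 6 raised receptors, not the same ones in each tumour. The share of all genes raised by this measure was not computed, so the count sets neither receptors nor tumours apart. The spread among tumours (SD of log2 CPM, n = 7) was 3.60 for Met, 1.62 for Egfr and 1.01 for both Kit and Fgfr3, against a median of 0.67 over all genes. Met had a larger SD than 99.8% of genes and Egfr than 93.9%. At the other end, the SD of Fgfr1 was 0.36.

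**Figure D4:**
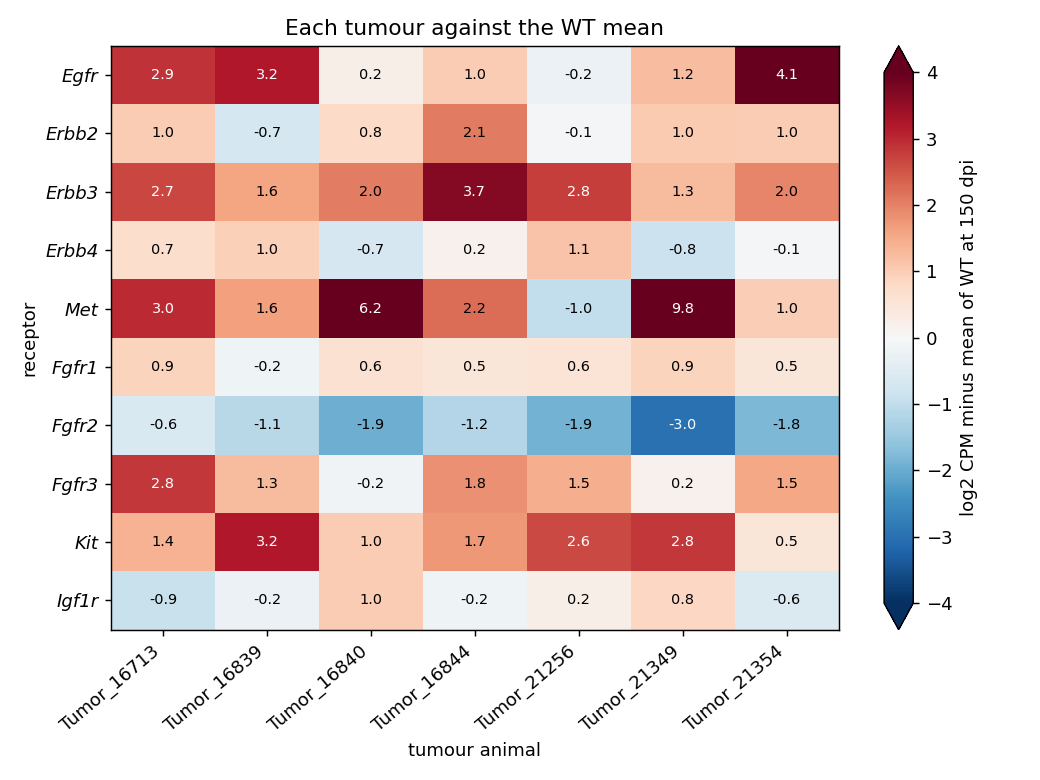
Log2 CPM of each receptor (rows) in each tumour (columns) minus the mean of the WT mice at 150 dpi, with the difference printed in each cell. Erbb3 is raised in all 7 columns and Fgfr2 lowered in all 7, while Egfr and Met range from below the WT mean in Tumor_21256 to far above it in other tumours.

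Among the receptors themselves, deviations of log2 CPM from the group mean over the 37 animals were most alike for Fgfr2 and Fgfr3 (r = 0.59) and most opposed for Fgfr2 and Igf1r (r = -0.56). Of all tested genes, the one most like each receptor over the 37 animals was Luzp2 for Erbb4 (r = 0.90), Col11a2 for Fgfr3 (0.85), Fam26e for Erbb2 (0.84, and 0.76 without the shallowest animal, WT_21167), Hoxa2 for Met (0.82), Kif5c for Kit (0.82), Ubr7 for Igf1r (0.82), Acan for Fgfr2 (0.78), Arhgef7 for Fgfr1 (0.77), Mme for Erbb3 (0.74) and Omd for Egfr (0.70). Each value is the highest among all tested genes of the same libraries and is given as a description.

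The ligands and partners of the receptors were followed as lists of 66 genes, of which 58 were tested. Against WT at 150 dpi 22 rose and 11 fell in tumours, and against CKO at 90 dpi 23 rose and 14 fell, by edgeR. In each of the 6 comparisons without tumours 0 of the 58 were called. The percentages of all genes called, given above, are the background of these counts, which were made with TMM scaling alone.

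Of 9 tested EGF-type ligands and neuregulins, 3 rose and 2 fell against WT (median log2 change 0.68, all genes 0.06). Tgfa, a ligand of EGFR, had 148 ± 47.8 CPM in tumours and 46.9 ± 13.6 in WT (1.65), and Hbegf, another EGFR ligand, rose by 1.07. The neuregulins Nrg3 (15.7 ± 23.2 against 56.7 ± 43.8 CPM) and Nrg2 (0.595 ± 0.356 against 2.58 ± 2.38 CPM) fell by 1.93 and by 1.89. Nrg2 was low in both groups, and its highest tumour (1.08 CPM) was above its lowest WT mouse (0.340). Against CKO at 90 dpi 4 rose, with Btc (2.28) and Egf (1.41) first, and 3 fell, with Areg (-2.96) and Nrg2 (-2.04) first. Btc averaged 3.17 ± 6.27 CPM, with 17.4 in 1 tumour and an adjusted p of 0.0498 (edgeR).

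Of 9 tested FGF ligands, 1 rose and 4 fell in both comparisons (median log2 change -0.80 against WT, all genes 0.06). Over all genes 24.3% were called higher and 21.9% lower against WT, and 26.4% and 22.6% against CKO. With 9 ligands, these counts do not set the list apart. Fgf2 rose from 13.1 ± 11.3 to 42.2 ± 14.2 CPM against WT (1.78) and by 1.98 against CKO. Fgf10, a ligand of FGFR2, was at 1.24 ± 1.59 CPM in tumours, 80.4 ± 54.7 in WT and 41.1 ± 12.6 in CKO at 90 dpi, log2 changes of -6.30 and -5.41 (edgeR adjusted p = 5.94e-14 and 1.39e-12). The highest tumour, at 4.73 CPM, was below the lowest WT mouse, at 37.2. Fgf16 changed by -3.53 and -4.05.

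Of the 4 ligands of MET, KIT and IGF1R, Igf2 (1.31) and Igf1 (1.24) rose against WT, and Igf2 (2.40) against CKO. The mean of Igf2 in tumours, 84.5 ± 135 CPM, came with a maximum of 386 and overlapped the WT range of 14.2 to 54.7. Of 6 IGF binding proteins, which hold IGFs outside the cell, 4 rose and 1 fell against WT and 5 rose and 1 fell against CKO. Igfbp3 had 130 ± 119 CPM against 18.1 ± 7.04 in WT (2.80), Igfbp2 93.2 ± 69.8 against 14.3 ± 7.86 (2.61), and Igfbp4 rose by 2.73 against CKO. Igfbp6 changed by -3.40 and -3.80.

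Of 13 adaptors and substrates, 7 rose and 2 fell against WT and 6 rose and 2 fell against CKO. Gab1, a docking protein of MET and EGFR, had 247 ± 53.0 CPM in tumours and 67.1 ± 14.8 in WT (1.89). Grb2, the adaptor that links receptors to RAS activation, had 40.7 ± 9.78 against 189 ± 32.2 CPM, and fell by 2.22 (edgeR adjusted p = 1.74e-15). For both genes the 2 groups did not overlap, and against CKO the changes were 1.72 and -2.14. Shc3 (1.69) rose and Shc2 (-1.45) fell against WT, and Shc1 (1.60) rose against CKO.

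Of 9 receptor inhibitors and degraders, 3 rose and 2 fell against WT, and 3 rose and 4 fell against CKO. Fgfrl1, an FGF receptor without a kinase domain, had 68.4 ± 35.9 CPM against 10.5 ± 3.77 in WT (2.66, and 2.43 against CKO). Lrig3 rose by 1.70 against WT and Lrig1, which lowers ErbB receptors, by 1.87 against CKO. The falls were small: Ptpn1 -0.39 and -0.63, Lrig2 -0.38 against WT and Rnf41 -0.59 against CKO. Of 8 related receptors, 2 rose against WT, Pdgfra (1213 ± 686 against 421 ± 162 CPM, 1.54), a gene that also marks OPCs, and Csf1r (1.47), which is found on microglia. Against CKO 3 rose, with Fgfr4 (3.13, at 1.23 ± 0.958 against 0.112 ± 0.155 CPM) and Pdgfra (1.38) first.

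Each receptor was counted as detected in a small library if it had counts there. A library without counts does not show that its cells lacked the RNA. At 12 dpi, 56 10-cell libraries had counts of Fgfr1 in 76.8% (95% exact Clopper-Pearson interval 63.6% to 87%, counting error only), Igf1r in 75.0%, Fgfr3 in 67.9% and Fgfr2 in 58.9%. Egfr was detected in 37.5%, Erbb3 in 30.4%, Erbb4 in 25.0%, Erbb2 in 12.5%, Met in 10.7% and Kit in 5.36% (1.12% to 14.9%). At 90 dpi, again in 56 libraries, the shares were 96.4% for Fgfr1 (87.7% to 99.6%), 98.2% for Igf1r, 92.9% for Fgfr3, 83.9% for Fgfr2, 48.2% for Erbb3, 42.9% for Egfr, 32.1% for Erbb4, 16.1% for Erbb2, and 12.5% for both Met and Kit. The median number of genes detected per 10-cell library also went from 7550 to 10109.5, and its part in these shares was not tested. In the pool-and-split libraries, 40 at each time, the shares from 12 to 90 dpi were 37.5% and 25.0% for Egfr, 87.5% and 80.0% for Fgfr1, 85.0% and 95.0% for Fgfr3 and 5.0% and 10.0% for Kit.

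The sets of small libraries, summed per set, showed no called change from 12 to 90 dpi. Of 10 tested receptors in 10-cell sets 0 were called (0% of 14496 genes), and of 8 in pool-and-split sets 0 (0% of 13402 genes), by edgeR with 4 sets against 4. At an unadjusted p under 0.05 edgeR gave 0 in both kinds, and DESeq2 called 0 in both and gave 1 each (Met, and Erbb2). Over all genes DESeq2 called 273 of 14496 in 10-cell sets and 521 of 12882 in pool-and-split sets. The fitted changes carried wide errors, for example 0.03 ± 0.59 (SE) for Fgfr3, 0.52 ± 0.57 for Fgfr2 and -3.50 ± 5.97 for Met in 10-cell sets.

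Single libraries held most of the counts of several receptors. At 12 dpi 1 of 56 10-cell libraries held 96.4% of the counts of Met (680.1 CPM in that library), 91.5% of those of Egfr (700.4 CPM) and 89.7% of those of Igf1r (7014 CPM). For Fgfr1 the largest library held 51.2%. The receptor's level in such a set then rests mostly on 1 library. Pool-and-split controls showed this too. At 12 dpi 1 of their 40 libraries held 99.7% of the counts of Kit, 81.7% of those of Met and 75.6% of those of Erbb2. For Fgfr3 the largest held 13.1%. What gives rise to such libraries was not tested.

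Whether 10-cell libraries varied more than pool-and-split libraries could be tested for Fgfr1, Fgfr2, Fgfr3 and Igf1r, the 4 receptors detected in at least 50% of libraries. None of the 4 was called by limma at 12 or 90 dpi, 0 of 4 had an unadjusted p under 0.05, and no other tool was run. The replicates of that test are single libraries, which share a source within a set, so its p-values may be too small. Over the 4 sets, the SD was larger in 10-cell libraries in 2 and 3 sets for Fgfr3 (12 and 90 dpi), 2 and 2 for Fgfr1 and for Igf1r, and 1 and 1 for Fgfr2. Of all tested genes 0.0254% were called at 12 dpi, all with a larger spread in 10-cell libraries (0.0254%), and 0.621% at 90 dpi, 0.259% with the larger spread in 10-cell libraries. The differences in absolute deviation (10-cell minus pool-and-split, log2 of CPM + 1) were 0.35 and 0.30 for Fgfr3 at 12 and 90 dpi, 0.31 and 0.24 for Fgfr1, 0.11 and 0.02 for Igf1r and -0.13 and -0.23 for Fgfr2.

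Bulk and small CKO samples gave unlike levels for some receptors and like levels for others. Erbb4 had a median of 234 CPM in bulk at 12 dpi and 0.909 in the 10-cell sets, 0.678 in the pool-and-split sets, and 272, 2.88 and 0.0428 at 90 dpi; every bulk animal was above every set. Kit showed the same order, with 32.9, 0.144 and 0.0249 CPM at 12 dpi and 31.7, 0.455 and 0.0548 at 90 dpi. At 90 dpi every bulk animal was also above every set of both kinds for Fgfr1, Fgfr2 and Igf1r. For 1 kind of set, this held for Fgfr2 (10-cell), Igf1r, Egfr and Met (pool-and-split) at 12 dpi. At 90 dpi it held so for Egfr (pool-and-split) and Met (10-cell). The share of all genes with such a split was not computed, so it sets no receptor apart. Fgfr3 overlapped between bulk and both kinds of set at both times, with medians of 26.2, 27.1 and 33.3 CPM at 12 dpi. Erbb3 had 33.1 CPM in bulk at 90 dpi, 38.4 in 10-cell sets and 47.6 in pool-and-split sets, with overlap, but at 12 dpi every bulk animal (15.9 CPM or more) was above every 10-cell set (15.5 or less). The neuron markers summed to a median of 9013 in bulk CKO at 90 dpi and of 2565 and 2002 over the 10-cell and pool-and-split libraries of that time. Amplification (T7 or PCR), RNA kind and section thickness differ together with the kind of sample and cannot be told apart from it.

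**Figure D5:**
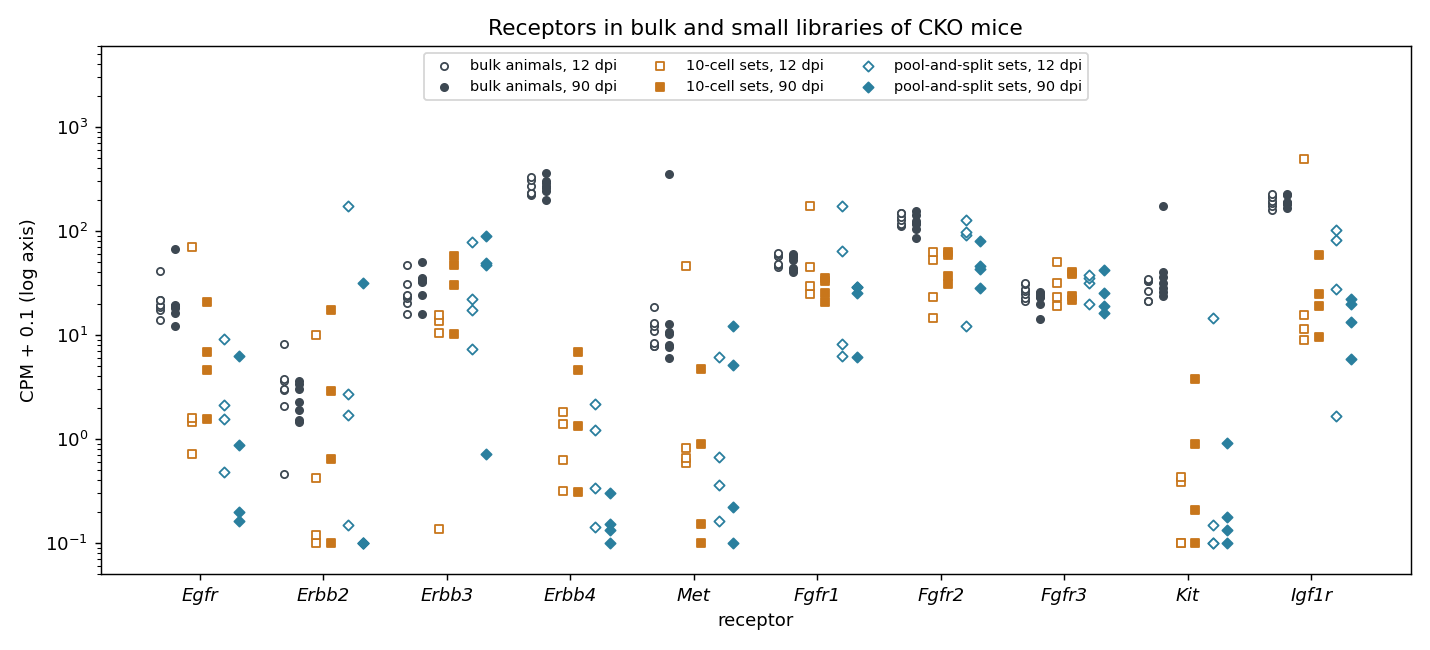
CPM + 0.1 (log axis) of each receptor in CKO bulk animals (circles), 10-cell sets (squares) and pool-and-split sets (diamonds), open at 12 and filled at 90 dpi. Every bulk animal lies above every set of its time for Erbb4 and Kit, and at 90 dpi also for Fgfr1, Fgfr2 and Igf1r. Erbb3 and Fgfr3 at 90 dpi overlap between bulk and sets.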

How the data were processed

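The values are expected counts per gene that the authors deposited as 1 table for all libraries. Per the submitters' processing notes, reads were handled with Bowtie2 and RSEM on GRCm38; versions, annotation and strand are not given in the sources used here. The 92 spike-in rows were left out, counts were rounded, and no 2 libraries were identical. The 2 libraries of 11 bulk mice were summed, giving 37 animals. Genes were filtered with edgeR's filterByExpr (minimum count 10, minimum total 15), and 16349 were fitted over all bulk animals by edgeR 4.0.16 (R 4.3.3, TMM scaling, quasi-likelihood test, sex as a covariate), with Benjamini-Hochberg adjustment over all genes and a threshold of 0.05. CPM in the text uses TMM-scaled library sizes except where 2 libraries of an animal are compared, which use the library total; the same holds for single small libraries. Deviations use log2 CPM with a prior count of 2, and 95% intervals of a log2 change are a normal approximation from its SE. Small libraries were summed per set. Spread was tested with limma 3.58.1 on log2(CPM + 1) for genes detected in 50% of libraries. DESeq2 1.42.0 was an alternative. The scripts were tested on simulated data. Levels per kilobase use the longest coding transcript of GENCODE M21, which matched 34331 of the 34623 genes.

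Every receptor was named in every comparison. Of each list of related genes, the called genes with the 2 largest rises and the 2 largest falls in each tumour comparison were named, and for each receptor the gene most correlated with it. The receptors and lists were chosen with earlier results of these data known. Mice are the bulk replicates. The labels do not say that sets of small libraries came from separate mice, so p-values over sets measure only the spread between these sets.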

Additional observations from a re-analysis of the deposited data

Results flagged for a closer look

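A sample was listed where its distance to the nearest other sample of its group exceeded Dixon's 95% critical value for the group's range. This held for 25 of 100 groups of a receptor, 12 of 60 among bulk groups and 13 among small sets, and chance gives about 1 in 20. The groups are not independent, since 1 animal or library enters all 10 receptors.

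Among bulk animals, CKO_20647 at 90 dpi was the highest for Met (350.5 CPM, next 12.5), Kit (173, next 39.8) and Egfr (67.5, next 19.2). Its Met came from one of its 2 libraries and its Kit and Egfr mostly from the other. Among tumours, Tumor_21349 stood apart in Met (2492 CPM, next 208) and Tumor_16713 in Fgfr3 (162, next 81.3). Tumor_16844 stood apart in Erbb3 (384, next 205) and Erbb2 (11.1, next 5.41). Its 2 libraries were alike in Erbb3, with 440 and 450 CPM of the library totals. They differed in Erbb2, with 6.84 and 20.8 CPM. The lower Erbb2 value was not apart from other tumours' libraries, such as those of Tumor_16713 (3.46 and 9.71 CPM). At 12 dpi CKO_22017 was highest in Egfr (40.9 CPM), CKO_22364 in Erbb2 (8.10) and WT_22281 lowest in Met (4.26). WT_21593 was highest in Fgfr1 at 150 dpi (63.9 CPM), and WT_21167, the shallowest animal, lowest in Fgfr3 at 90 dpi (9.48).

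Among 10-cell sets at 12 dpi, female_2 was highest in Egfr (70.2 CPM) and Fgfr1 (175), male_1 in Met (45.8) and Igf1r (489.5), and female_1 in Erbb2 (9.84). At 90 dpi male_2 was highest in Erbb2 (17.2). Among pool-and-split sets at 12 dpi, female_2 was highest in Erbb2 (173.5 CPM) and Met (6.08) and male_2 in Kit (14.3). At 90 dpi female_1 was highest in Egfr (6.13) and Kit (0.823) and lowest in Fgfr1 (6.05), and female_2 was highest in Erbb2 (31.4). The same number in both kinds of set names no shared source that the labels state.

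The genotype effect differed between 150 dpi, with tumours, and 90 dpi by the interaction term for Egfr (2.11), Erbb3 (2.12), Fgfr3 (1.91) and Fgfr2 (-1.52).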

How the results depend on the processing

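Alternatives were DESeq2, its size factors in edgeR, a fit of the compared groups alone, no filter, a minimum mean of 10 CPM, a fit without sex, 1 library per animal (the deepest), and leaving out each animal or set. CKO_20647 represented by its library with more genes was added after seeing the data. No receptor with a call changed direction under any of them. Of single receptors' values under alternatives, 3913 kept direction and side of the threshold, 87 without a call in either setting changed sign, 37 gained a call and 4 lost one. DESeq2 called 10 receptors in tumours against CKO at 90 dpi (6 by edgeR) and 7 in the difference between the 150 and 90 dpi genotype effects (4 by edgeR). Over all genes DESeq2 called 8756 of 16257 in the first and 5555 of 16257 in the second. With an animal left out the counts ran from 7 to 7 in tumours against WT, 5 to 9 against CKO and 4 to 6 in that difference; in all other comparisons of animals, sets and spread they ran from 0 to 0. With 1 library for CKO_20647 they were 7, 7 and 5. The causes of these differences were not tested. The minimum mean of 10 CPM left 9 receptors.

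Correlations of same-numbered small sets between the times, over deviations from the group mean, ran from -0.039 to 0.019. Same-numbered sets also share their sex by label, so values near 0 cannot decide whether the numbers pair the sets. With the number as a replicate block, 0 receptors were called in both kinds of set. Depth limits low receptors: in WT_21167, with 93694 counts, Erbb2 was at 0, where 3 counts would be 32.0 CPM. No receptor's absence can be read from a small library without counts.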

Other observations

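The genes around Met were examined after its values had been seen, as a description. Of the genes within 1000000 bases of it, 7 were tested. In Tumor_21349, Met was 7.81 log2 units above the median of the other 6 tumours; the median of its neighbours was -0.01, and 1 of the 7, Cftr, was more than 1 above (3.13). In Tumor_16840 Met was 4.23 above the others' median, with a median of 0.82 for the neighbours and 3 of 7 more than 1 above. For Egfr in Tumor_21354 the difference was 2.93, and the median of 10 neighbours -0.56. For Erbb3 in Tumor_16844 it was 1.67, and the median of 61 neighbours 0.07. Between 8.48% and 11.7% of all genes were more than 1 above in these tumours.

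The neuregulin receptor Erbb3 rose in tumours against WT (2.43), while the neuregulin Nrg2, at low CPM with overlapping groups, fell (-1.89). Fgfr2 and its ligand Fgf10 both fell (-1.50 and -6.30). These pairs were picked after their values were seen, and no relation between them was tested.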
